A study of Mus musculus with 9 samples.

Results

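Endothelial and angiogenesis genes were examined in RNA-Seq of mouse ovaries over the days around initial follicular antrum formation (iFFA), when fluid-filled cavities first appear within growing follicles. The genes were 36 chosen by name for their known roles, found by symbol in the deposited tables among 52025 genes. They comprised 25 genes of blood vessel endothelium, 4 of lymphatic endothelium and 7 growth factors that act on vessels. Of the 36, 35 passed the filter on low values, a mean above 1 FPKM on at least 1 day, and were tested together with all other expressed genes, 15495 in total. Of these, Pgf passed through PD14 only, the day on which it was highest, so its differences from PD14 are given as values with no test and the counts below leave it out, with 34 genes. The shares over all genes still hold every tested gene, including any that passed on 1 day only. FPKM are fragments scaled by exon length and by library depth, so levels can be set side by side between genes.

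The study followed juvenile females of the Kunming strain, an outbred stock, on postnatal day (PD) 14, PD15 and PD16, with 3 libraries for each day and 9 in total. No treatment, deletion or transgene is named for any group, and the groups differ by age. The labels do not say whether the 3 libraries of a day came from separate animals, so the p-values measure the spread between these samples. In their figure of these transcriptomes the authors give 3 biologically independent ovaries and do not name the number of mice. The FPKM steps put depth at 20.4 M to 28.7 M mapped fragments in a library (median 24.2 M). The labels name the source as granulosa cells and the tissue as ovary. Markers of several ovarian cell types were found together, since the oocyte gene Gdf9 was at 206 to 274 FPKM, the theca cell gene Cyp17a1 at 19.9 to 46.5 FPKM, the smooth muscle gene Acta2 at 222 to 344 FPKM and the granulosa cell gene Amh at 168 to 261 FPKM. The libraries are therefore described as whole ovaries. In such bulk samples, fewer cells of a type and less RNA per cell cannot be told apart.

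Blood vessels of the ovary run through the stroma and form a wreath in the theca around each growing follicle, while the granulosa cells and the oocyte inside have no vessels of their own. Vascular endothelial growth factors made by follicle cells signal through Kdr, Flt1 and Flt4 on endothelial cells, with Nrp1 and Nrp2 as co-receptors. A separate ligand pair, Angpt1 and Angpt2, acts on the receptor Tek and its partner Tie1 to settle or loosen vessels. Apelin, the product of Apln, signals through Aplnr and is made by sprouting tips of new vessels. Lymphatic endothelium is set apart by Prox1, its defining transcription factor, with Flt4, Lyve1 and Pdpn.

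Promoter sequence was inspected because ETS factors such as Erg bind a GGAA core in many endothelial promoters. The following 3 windows hold the 250 bases before the RefSeq start, in GRCm38.p6 and 5′ to 3′ on the strand of the gene. They are shown for an angiopoietin receptor, a VEGF receptor and the ligand apelin, and capitals mark the letters GGAAG or their reverse complement CTTCC.
Tek, chr4:94739039-94739288, plus strand: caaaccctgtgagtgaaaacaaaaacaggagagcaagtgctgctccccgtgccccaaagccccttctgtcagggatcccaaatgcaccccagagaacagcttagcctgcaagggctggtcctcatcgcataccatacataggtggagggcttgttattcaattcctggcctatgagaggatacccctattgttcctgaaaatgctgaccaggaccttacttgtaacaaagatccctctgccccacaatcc
Flt1, chr5:147726012-147726261, minus strand: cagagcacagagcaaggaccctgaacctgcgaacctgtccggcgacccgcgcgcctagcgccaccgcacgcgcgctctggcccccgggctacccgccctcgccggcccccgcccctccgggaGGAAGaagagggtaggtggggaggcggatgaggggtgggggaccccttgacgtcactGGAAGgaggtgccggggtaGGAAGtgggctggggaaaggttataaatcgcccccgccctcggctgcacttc
Apln, chrX:48034854-48035103, minus strand: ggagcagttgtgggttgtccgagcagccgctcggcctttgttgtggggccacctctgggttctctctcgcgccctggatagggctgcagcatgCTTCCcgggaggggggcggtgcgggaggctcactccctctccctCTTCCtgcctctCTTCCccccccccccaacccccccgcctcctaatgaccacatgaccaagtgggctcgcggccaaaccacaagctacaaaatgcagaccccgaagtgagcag
The Flt1 and Apln windows each held 3 such matches, all on 1 strand within each window, and the Tek window held 0. The shorter core alone, GGAA or its reverse complement TTCC, was not marked. It does occur in the Tek window, and also outside the marked letters in the Flt1 window. RefSeq promoters were at hand for 20 of the 36 genes, with 27 windows in all. GGAAG or CTTCC was found in 66.7% of these windows and in 64.1% of the 32851 windows of all genes. ACAAT, the core read by SOX factors, or its reverse complement ATTGT was found in 22.2% against 27.7%. ACGTG, the core of the hypoxia response element, or CACGT was found in 11.1% against 16.6%. These shares lie close to those of all promoters, and a match of a few letters is a description of the window only.

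Among these 34 genes, few differed between days beyond the spread between libraries. From PD14 to PD15, Sox18, a transcription factor of endothelial cells, rose and none fell past the threshold. From PD14 to PD16, Tie1 and the apelin receptor Aplnr fell and none rose past the threshold. Between PD15 and PD16 no gene of the group passed. The threshold was an adjusted p under 0.05 by limma with the Benjamini-Hochberg method over all 15495 genes.

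In PD15 against PD14, 1 of 34 rose, against 0.336% of all tested genes, and 0 fell, against 0.342%. At an unadjusted p under 0.05, 1 of 34 was higher and 4 were lower, and the shares over all genes were 7.22% and 7.51%. The libraries of the 2 days did not overlap for 6 genes, of which 1 was higher and 5 lower on PD15, where 10.4% of all genes were higher and 10.2% lower without overlap. The 5 were Tie1, Esam, Egfl7, Aplnr and Nrp1.

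In PD16 against PD14, 2 of 34 fell, against 1.89% of all tested genes, and 0 rose, against 2.36%. At an unadjusted p under 0.05, 5 were lower and 3 higher, against 11.0% and 11.8% of all genes. Without overlap of libraries, 7 were lower and 3 higher, against 13.5% and 15.0% of all genes. The 7 were Pecam1, Cdh5, Tek, Tie1, Esam, Aplnr and Angpt1, and the 3 were Sox18, Lyve1 and Apln.

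In PD16 against PD15, 0 of 34 were called by limma in either direction, against 0.432% higher and 0.297% lower over all genes. At an unadjusted p under 0.05, Eng, Lyve1 and Angpt2 were higher and Sox18 was lower, 3 and 1 of 34 against 6.78% and 7.34% of all genes. With voom on the recovered fragments the count of called genes was also 0. The libraries did not overlap for Eng, Egfl7 and Nrp1, higher on PD16, and for Cdh5 and Sox18, lower on PD16, where all genes gave 9.85% and 9.73%. The F test over all 3 days called Sox18 and Aplnr, 2 of 34 against 3.03% of all genes, and 11 of 34 had an unadjusted p under 0.05 against 22.3%.

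**Figure D1:**
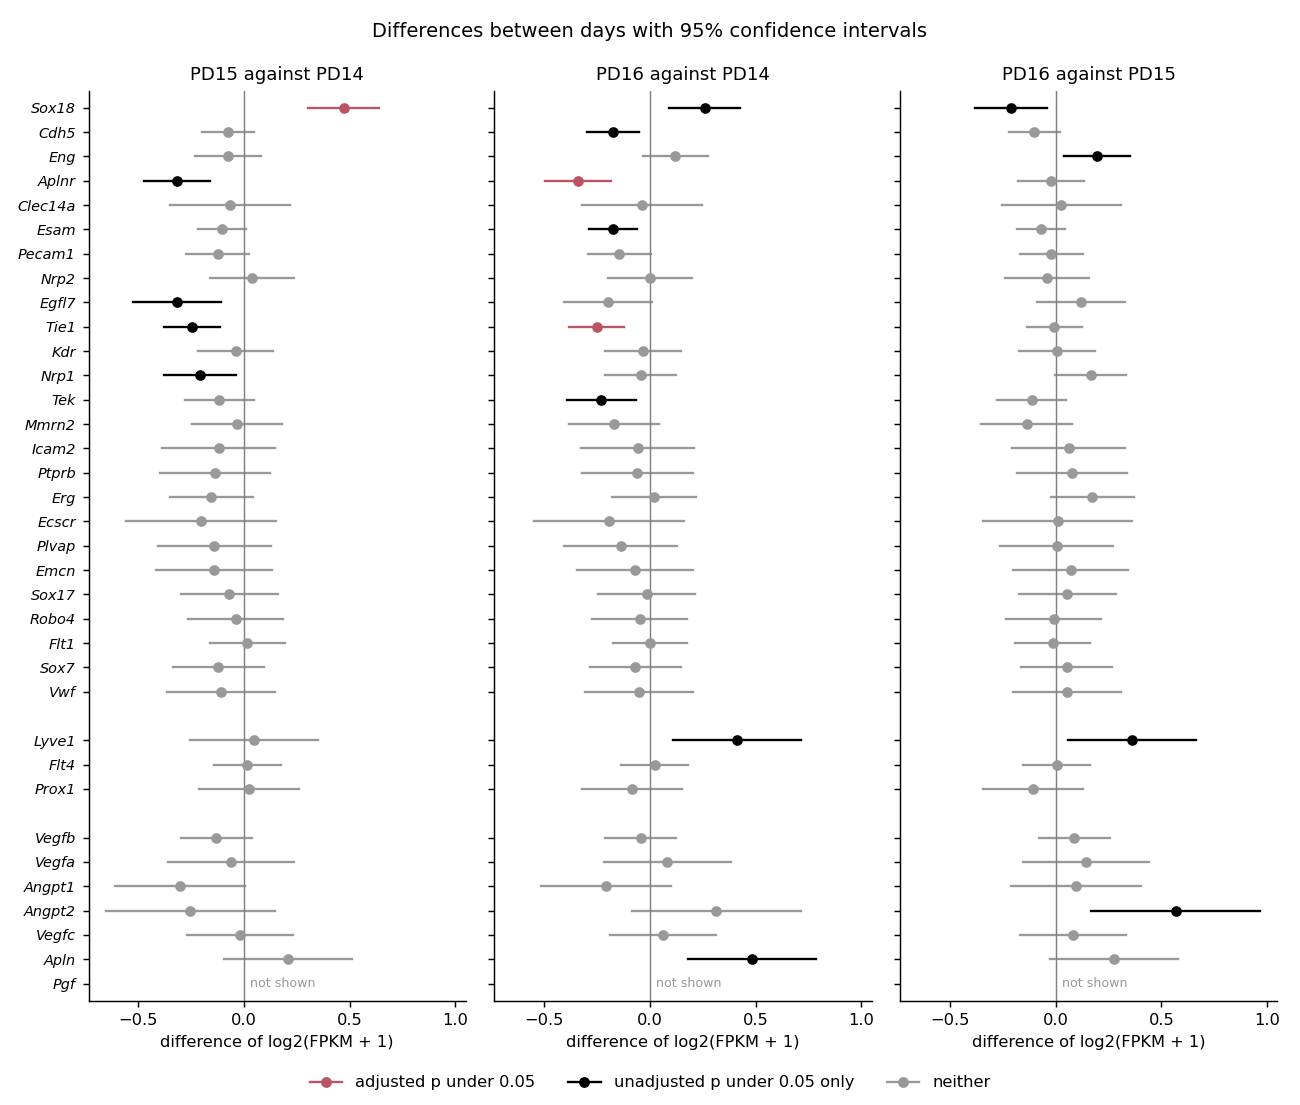
Differences between days for 34 genes (Pgf is not shown) in order of level within each group, as the difference of log2(FPKM + 1) with its 95% confidence interval from limma. Points left of 0 were lower on the later day. Red marks an adjusted p under 0.05, reached by Sox18 on PD15 and by Aplnr and Tie1 on PD16, each against PD14.

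The small differences of the blood vessel genes pointed mostly downward from PD14. Of 25 genes, 22 had a negative log2 difference on PD15, with a median of -0.12, and 21 on PD16, with a median of -0.06. Over all tested genes 48.1% and 47.8% were negative, with medians of 0.01 and 0.01. Several lists of other cell types, given below, were also mostly negative on PD15. Across the main fit and the alternatives that kept all 25 genes, the number negative ran from 19 to 23 on PD15 and from 17 to 23 on PD16. The low ends came without PD15 replicate 1 and without PD14 replicate 2. The median on PD15 was -0.06 without PD15 replicate 1, and that on PD16 was -0.04 without PD16 replicate 2 and -0.10 without PD16 replicate 3. From PD15 to PD16, 14 of the 25 were positive and 11 negative, with a median of 0.01, and the balance turned to 14 negative under 75th percentile scaling, 13 under median-ratio scaling and 16 without PD15 replicate 1. The summed level of the 25 genes was 232 to 252 FPKM in the PD14 libraries, 233 to 240 FPKM on PD15 and 228 to 236 FPKM on PD16, so the ranges of the days overlapped. This sum includes Sox18, the highest of the genes, at 33.5 to 37.1 FPKM on PD14, 44.8 to 53.9 FPKM on PD15 and 41.6 to 44.4 FPKM on PD16. Sox18 thus moved against most of the other genes, and the overlap of the sums does not describe those genes without it.

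The summed levels of other cell type markers are given here for all lists but that of the mural cells, which is described with its genes. The summed level of 8 red cell genes, blood being the content of the vessels, was 106 to 148 FPKM on PD14, 46.8 to 63.6 FPKM on PD15 and 61.0 to 117 FPKM on PD16. A list of 9 fat and skeletal muscle genes, tissue that lies outside the ovary, summed to 7.24 to 8.91 FPKM, 5.59 to 5.92 FPKM and 4.97 to 6.91 FPKM on the same days, highest on PD14 without overlap. Adipoq, Acta1 and Ckm were at most at 0.159 FPKM. Only 1 gene of this list was tested, and it was called lower than on PD14 on both later days. Its log2 difference was -0.60 on PD15 and -0.50 on PD16, where 0.342% and 1.89% of all genes were called lower. Theca and interstitial cell genes, 9 in number, summed to 1684 to 2309 FPKM, 1251 to 1822 FPKM and 1282 to 1691 FPKM. A list of 13 leukocyte genes was at 15.4 to 19.4 FPKM, 13.6 to 17.5 FPKM and 17.3 to 19.0 FPKM. These theca and leukocyte ranges overlapped between the days. Oocyte genes, 12 in number, summed to 1225 to 1524 FPKM, 1589 to 1726 FPKM and 1170 to 1249 FPKM, highest on PD15 without overlap. Stromal genes, 10 in number, were at 761 to 852 FPKM, 645 to 742 FPKM and 768 to 783 FPKM, lowest on PD15 without overlap. For 11 genes of surface epithelium, oviduct and mesothelium the sums were 54.1 to 63.9 FPKM, 49.98 to 57.3 FPKM and 42.6 to 48.2 FPKM, lowest on PD16 without overlap. The 12 granulosa cell genes overlapped, at 3109 to 3782 FPKM, 2923 to 3341 FPKM and 3032 to 3580 FPKM. A list of 10 housekeeping genes was at 764 to 906 FPKM on PD14, below 911 to 961 FPKM on PD15 and 916 to 1040 FPKM on PD16. Genes of other lists were also called. On PD15, 1 red cell gene was lower and 1 oocyte gene higher, against 0.342% and 0.336% of all genes. On PD16 against PD14 the granulosa list had 2 higher and 2 lower, the oocyte list 1 higher and the surface epithelium list 2 lower. All genes gave 2.36% higher and 1.89% lower. On PD16 against PD15, 2 oocyte genes were lower, against 0.297% of all genes. None of these lists had a marker at 0 in every library. Tested genes of several lists were also mostly negative against PD14. On PD15 this held for 5 of 5 red cell, 7 of 9 theca, 6 of 8 leukocyte and 7 of 10 stromal genes. It held for 8 of 12 granulosa cell, 4 of 7 surface epithelium, 5 of 10 housekeeping and 3 of 12 oocyte genes. On PD16 the counts were 5, 5, 3, 7, 8, 5, 4 and 9 in the same order. The part of these cells in the differences of the vessel genes was not tested.

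Levels spanned from Sox18, at a mean of 42.5 ± 6.66 FPKM (SD over 9 libraries), to Pdpn, which was near 0. Sox18 was above all other members in each library, since its lowest value of 33.5 FPKM exceeded the highest value of the next gene, Cdh5, at 28.5 FPKM. Cdh5 (25.6 ± 1.63 FPKM), Vegfb (24.5 ± 1.78 FPKM), Vegfa (23.8 ± 3.09 FPKM) and Eng (20.5 ± 1.66 FPKM) followed, and neighbours in this order overlapped in their libraries. Most of the remaining blood vessel genes lay between 2 and 15 FPKM. Vwf (1.08 ± 0.156 FPKM), Prox1 (1.03 ± 0.125 FPKM) and Pgf (0.731 ± 0.238 FPKM) were at the lower edge of what passed the filter.

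**Figure D2:**
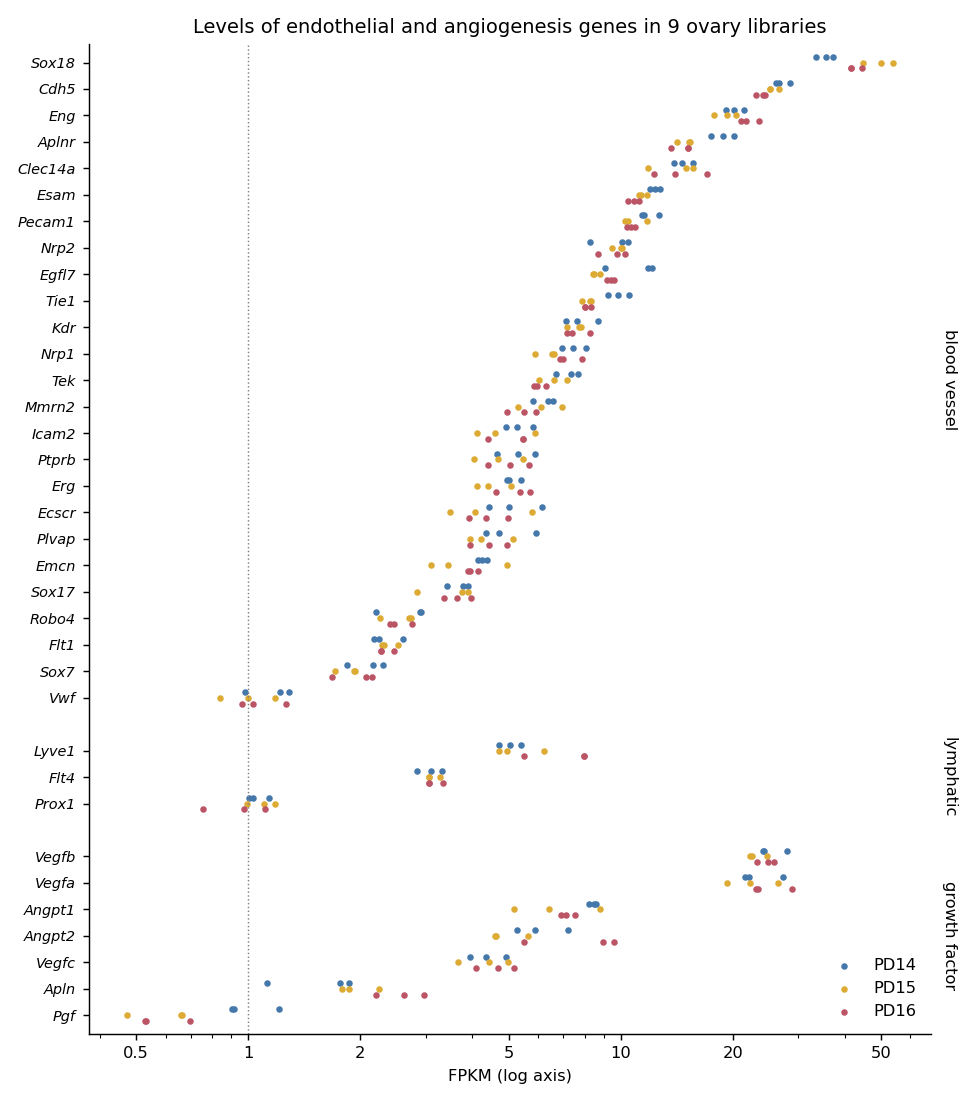
FPKM of 35 genes in each of the 9 libraries on a log axis, with 3 points for each day and the genes grouped and ordered by mean level. The dotted line marks 1 FPKM. Sox18 lies highest, from 33.5 to 53.9 FPKM, and Pgf lowest, from 0.472 to 1.21 FPKM, while Pdpn is left out because it was at 0 in 6 libraries.

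Sox18 (chr2:181669836-181671640, minus strand, mm10), which acts in the specification of arterial and lymphatic endothelium, was at 35.5, 37.1 and 33.5 FPKM in the PD14 libraries, at 53.9, 49.98 and 44.8 FPKM on PD15 and at 41.6, 44.4 and 41.6 FPKM on PD16. Every PD15 library was above every library of the other days, and every PD16 library above every PD14 library. Sox18 rose from PD14 to PD15 by 0.47 on the log2(FPKM + 1) scale (SE 0.07, adjusted p = 0.0356 by limma), which is 1.40-fold between the means. On PD16 it was 1.20-fold of PD14, a log2 difference of 0.26 (SE 0.07, adjusted p = 0.0829), and against PD15 the log2 difference was -0.21 (adjusted p = 0.237).

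The call for Sox18 held without PD15 replicate 3 or PD16 replicate 3, and was lost on leaving out any of the other 7 libraries, PD14 replicates 1, 2 and 3, PD15 replicates 1 and 2 and PD16 replicates 1 and 2. The adjusted p over these 9 fits ran from 0.0224 to 0.130 and the log2 difference from 0.41 to 0.54. The related factors Sox17 and Sox7, which act in the same arterial programme, stayed lower, with means of 3.61 ± 0.362 FPKM and 1.98 ± 0.213 FPKM over the 9 libraries. Sox17 was at 3.69, 3.50 and 3.65 FPKM and Sox7 at 2.11, 1.85 and 1.97 FPKM as means of PD14, PD15 and PD16. Neither passed the test in any comparison. Erg, an ETS factor that maintains endothelial identity, averaged 5.14 ± 0.240 FPKM, 4.53 ± 0.507 FPKM and 5.23 ± 0.544 FPKM on the 3 days.

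Of the receptors of the angiopoietin system, Tie1 passed the test and Tek did not. Tie1 (chr4:118471191-118490061, minus strand), the partner receptor that modulates Tek, was at 9.23, 10.5 and 9.85 FPKM on PD14, at 8.33, 7.87 and 8.30 FPKM on PD15 and at 8.02, 8.03 and 8.31 FPKM on PD16. All PD14 libraries were above all others, and the later days overlapped each other. Tie1 fell from PD14 to PD16 by 0.25 on the log2(FPKM + 1) scale (SE 0.06, adjusted p = 0.0458), to 0.823 of the PD14 mean. On PD15 the log2 difference was -0.24 (SE 0.06, adjusted p = 0.104). The call on PD16 was lost on leaving out any of the 9 libraries, with an adjusted p of 0.0555 to 0.136 and a log2 difference of -0.29 to -0.21.

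Tek, the receptor bound by the angiopoietins, was at 7.34, 6.71 and 7.68 FPKM on PD14, at 6.03, 6.64 and 7.17 FPKM on PD15 and at 6.29, 5.84 and 5.96 FPKM on PD16. The PD16 libraries were all below those of PD14, with a log2 difference of -0.23 (SE 0.07, adjusted p = 0.102), which did not pass. The PD15 libraries overlapped both other days. Ptprb, the phosphatase that acts on Tek and on Cdh5, averaged 5.28 ± 0.605 FPKM, 4.73 ± 0.730 FPKM and 5.04 ± 0.642 FPKM. The ratio of Tek to Tie1 was 0.738 ± 0.0868, 0.811 ± 0.0763 and 0.743 ± 0.0360 on the 3 days (SD, n = 3), and its ranges overlapped.

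Aplnr (chr2:85136225-85139923, plus strand), the receptor for apelin, was at 17.5, 20.2 and 18.8 FPKM on PD14, at 15.4, 15.2 and 14.2 FPKM on PD15 and at 15.2, 15.2 and 13.6 FPKM on PD16. Each PD14 library was above every later library, and PD15 and PD16 overlapped. Aplnr fell from PD14 to PD16 by 0.34 on the log2(FPKM + 1) scale (SE 0.07, adjusted p = 0.0314), to 0.780 of the PD14 mean. For PD15 the log2 difference was -0.31 (SE 0.07, adjusted p = 0.0867). The call on PD16 held without PD14 replicate 1, PD15 replicate 1 or PD15 replicate 3, and was lost without PD14 replicate 2 or 3, PD15 replicate 2 or PD16 replicate 1, 2 or 3, with an adjusted p of up to 0.1004.

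The VEGF receptors of blood vessels showed no difference that passed. Kdr, the main signalling receptor for Vegfa, was at 7.64, 8.70 and 7.14 FPKM on PD14, at 7.73, 7.82 and 7.18 FPKM on PD15 and at 7.19, 7.39 and 8.30 FPKM on PD16, and the days overlapped throughout. Flt1, a high-affinity receptor that also acts as a decoy, stayed within 2.17 to 2.60 FPKM. The co-receptor Nrp2 ranged from 8.27 to 10.5 FPKM, with means of 9.61, 9.85 and 9.58 FPKM. Nrp1, its relative, was at 7.46, 8.08 and 6.95 FPKM on PD14, at 5.88, 6.55 and 6.64 FPKM on PD15 and at 7.01, 6.89 and 7.85 FPKM on PD16. Its PD15 libraries were below all others, with a log2 difference to PD14 of -0.21 (SE 0.07, adjusted p = 0.241).

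No gene of endothelial junctions and adhesion passed the test, although the PD14 and PD16 libraries of Cdh5, Esam and Pecam1 did not overlap. Cdh5, which encodes VE-cadherin of the adherens junction, was at 26.1, 28.5 and 26.7 FPKM on PD14, at 25.2, 26.7 and 25.2 FPKM on PD15 and at 24.1, 23.1 and 24.4 FPKM on PD16. The PD16 libraries lay below all others, with a log2 difference to PD14 of -0.17 (SE 0.05, adjusted p = 0.0988). Esam, an adhesion molecule of the tight junction, had day means of 12.4 ± 0.379, 11.4 ± 0.299 and 10.9 ± 0.368 FPKM, and its PD14 libraries were above all later ones. Its log2 difference on PD16 was -0.17 (SE 0.05, adjusted p = 0.0879).

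Pecam1, the adhesion molecule commonly used to stain endothelium, was at 11.4, 11.6 and 12.7 FPKM on PD14, at 10.3, 10.5 and 11.8 FPKM on PD15 and at 11.0, 10.4 and 10.6 FPKM on PD16. The PD14 and PD16 libraries did not overlap, while the difference passed neither before nor after adjustment. Icam2, an adhesion receptor for leukocytes, ranged from 4.13 to 5.90 FPKM, the sialomucin Emcn from 3.09 to 4.95 FPKM and Ecscr, an endothelial surface protein, from 3.48 to 6.17 FPKM. Each of these 3 genes overlapped across all days.

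Eng, a co-receptor for ligands of the TGF-beta family, was at 19.2, 21.4 and 20.2 FPKM on PD14, at 17.8, 20.4 and 19.3 FPKM on PD15 and at 21.7, 21.1 and 23.5 FPKM on PD16. The PD16 libraries were all above those of PD15, with a log2 difference of 0.20 (SE 0.07, adjusted p = 0.233). Egfl7 (chr2:26580014-26593120, plus strand), a secreted matrix protein that guides endothelial cells, was at 9.09, 11.8 and 12.1 FPKM on PD14, at 8.83, 8.42 and 8.48 FPKM on PD15 and at 9.18, 9.44 and 9.63 FPKM on PD16. The lowest PD14 library was close to the later days, and the others were above them. The log2 difference between PD15 and PD14 was -0.32 (SE 0.09, adjusted p = 0.161), and without PD14 replicate 1 it was -0.44 with an adjusted p of 0.0330. Egfl7 passed in this 1 of the 9 fits that left out a library, and the adjusted p reached 0.363 in the others.

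Egfl7 is also the host gene of miR-126, a microRNA abundant in endothelium. The mature sequence is shown because host and microRNA share a primary transcript, with the seed (bases 2 to 8) in capitals. It lies at chr2:26591402-26591423 on the plus strand in GRCm38.p6, inside Egfl7 and within an exon of at least 1 annotated transcript.
mmu-miR-126a-3p: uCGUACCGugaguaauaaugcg
Mature microRNAs were not measured in these libraries, so only the level of the host is given.

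The remaining blood vessel genes overlapped between all days. Clec14a, an endothelial lectin, averaged 14.7 ± 0.875, 14.1 ± 2.04 and 14.5 ± 2.44 FPKM. Its matrix ligand Mmrn2 averaged 6.26 ± 0.385, 6.13 ± 0.840 and 5.46 ± 0.485 FPKM. Plvap, which builds the diaphragms of fenestrated capillaries, averaged 4.996 ± 0.817, 4.43 ± 0.624 and 4.44 ± 0.503 FPKM. Robo4, a guidance receptor that stabilises vessels, ranged from 2.21 to 2.91 FPKM. Vwf, the clotting factor stored in endothelial granules, ranged from 0.841 to 1.29 FPKM.

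**Figure D3:**
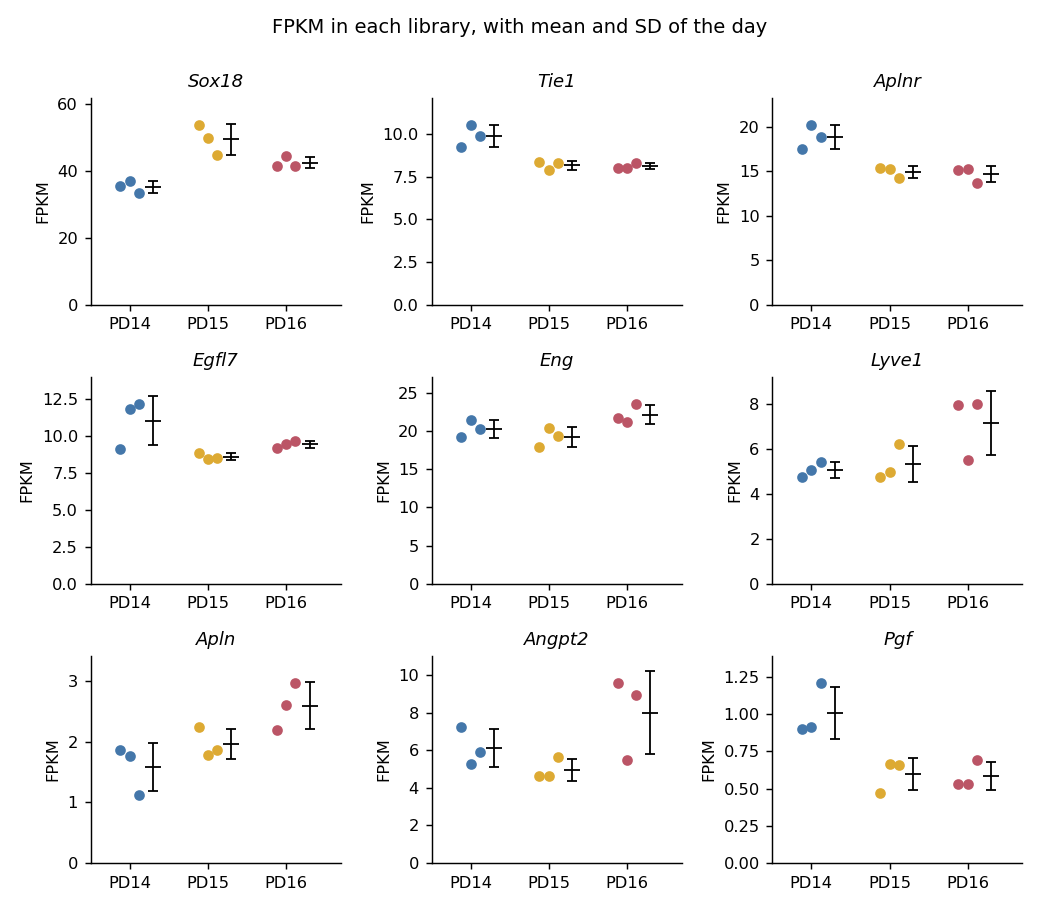
FPKM of 9 genes in each library, with 3 points for each day and, beside them, the mean and SD of the day, on axes that start at 0. Sox18 was highest on PD15, Tie1 and Aplnr were highest on PD14, and for Lyve1 and Angpt2 PD16 replicate 2 stood below the other 2 libraries of its day.

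None of the lymphatic genes tested passed. Prox1 ranged from 0.756 to 1.18 FPKM, which rests on 144 to 265 fragments a library, and Flt4, the receptor for Vegfc, from 2.84 to 3.34 FPKM. Both overlapped across all days. Lyve1 (chr7:110850607-110863239, minus strand), a hyaluronan receptor of lymphatic endothelium that some macrophages also carry, was at 4.73, 5.05 and 5.42 FPKM on PD14, at 4.72, 4.97 and 6.21 FPKM on PD15 and at 7.95, 5.49 and 7.99 FPKM on PD16. The PD16 libraries were above those of PD14, replicate 2 by a narrow margin. The log2 difference was 0.41 (SE 0.13, adjusted p = 0.111), or 1.41-fold between the means. Without PD16 replicate 2 it was 0.57 with an adjusted p of 0.0399. That was the 1 fit of the 9 leaving out a library in which Lyve1 passed, and the adjusted p reached 0.292 in the others.

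Pdpn, the podoplanin gene of lymphatic endothelium and mesothelium, was at 0 fragments in 6 libraries and at 1, 2 and 2 fragments in PD15 replicates 2 and 3 and PD16 replicate 3. A count of 0 allows up to 3 fragments, which is 0.0649 to 0.0811 FPKM in these 6 libraries, counting error only. It was not tested. The defining marker Prox1 was thus present at about 1 FPKM while Pdpn was near 0.

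Besides Pgf, for which no test is given, none of the growth factors passed the test. Of the 6, 5 had a negative log2 difference on PD15 against PD14, with a median of -0.10, 2 of 6 on PD16 against PD14, with a median of 0.07, and 0 of 6 on PD16 against PD15, with a median of 0.12. Over all genes 48.1%, 47.8% and 46.8% were negative. Across the alternatives that kept these 6 genes the counts ran from 4 to 5, from 1 to 4 and from 0 to 1, with 1 of 6 on PD16 against PD14 without PD14 replicate 3 and 4 of 6 without PD16 replicate 3. Without PD15 replicate 1 or PD15 replicate 2, 1 of 6 was negative on PD16 against PD15. Vegfa (chr17:46016993-46032369, minus strand), the chief angiogenic factor of follicle cells, was at 21.6, 27.3 and 22.1 FPKM on PD14, at 26.5, 22.2 and 19.3 FPKM on PD15 and at 23.3, 23.1 and 28.9 FPKM on PD16. The spread within each day exceeded the differences between the means, and no comparison passed. Vegfb, a ligand of Flt1, averaged 25.5 ± 2.18, 23.2 ± 1.38 and 24.7 ± 1.35 FPKM. Vegfc, the lymphatic growth factor, averaged 4.40 ± 0.491, 4.35 ± 0.662 and 4.65 ± 0.537 FPKM. The ratio of Vegfa to its receptor Kdr was 3.02 ± 0.165, 2.99 ± 0.394 and 3.29 ± 0.179 on the 3 days (SD, n = 3).

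Pgf (chr12:85166635-85177790, minus strand), placental growth factor and another ligand of Flt1, was at 0.903, 0.916 and 1.21 FPKM on PD14, at 0.472, 0.664 and 0.660 FPKM on PD15 and at 0.531, 0.529 and 0.696 FPKM on PD16. All PD14 libraries were above all later ones. The means on PD15 and PD16 were 0.593 and 0.580 of that on PD14. No test is given, since the PD14 mean of 1.01 FPKM alone carried the gene past the filter, and without PD14 replicate 3 it was not among the genes tested.

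Apln (chrX:48025146-48034853, minus strand), the ligand of Aplnr, was at 1.87, 1.76 and 1.12 FPKM on PD14, at 2.25, 1.79 and 1.87 FPKM on PD15 and at 2.20, 2.62 and 2.97 FPKM on PD16. These values rest on 72 to 238 fragments. PD16 was above PD14 in every library, with a log2 difference of 0.48 (SE 0.13, adjusted p = 0.0743) and 1.64-fold between the means, and did not pass. Ligand and receptor thus had opposite signs from PD14 to PD16, and the ratio of Apln to Aplnr was 0.107, 0.0872 and 0.0596 on PD14, 0.146, 0.117 and 0.132 on PD15 and 0.145, 0.172 and 0.218 on PD16. The PD14 ratios were below all others.

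Of the angiopoietins, Angpt1, the agonist of Tek, was at 8.60, 8.49 and 8.25 FPKM on PD14, at 6.42, 5.17 and 8.79 FPKM on PD15 and at 7.54, 6.91 and 7.12 FPKM on PD16. The PD15 libraries were widely spread and overlapped both other days, and no comparison passed. Angpt2 (chr8:18690263-18741562, minus strand), the context-dependent antagonist, was at 7.22, 5.27 and 5.89 FPKM on PD14, at 4.61, 4.63 and 5.65 FPKM on PD15 and at 9.58, 5.49 and 8.95 FPKM on PD16. PD16 replicates 1 and 3 were above all other libraries, and replicate 2 was within the range of the earlier days.

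The log2 difference of Angpt2 between PD16 and PD15 was 0.57 (SE 0.18, adjusted p = 0.185), and without PD16 replicate 2 it was 0.79 with an adjusted p of 0.0477. Angpt2 passed in this 1 of the 9 fits that left out a library, and the adjusted p reached 0.420 in the others. The ratio of Angpt1 to Angpt2 was 1.19, 1.61 and 1.40 on PD14, 1.39, 1.12 and 1.56 on PD15 and 0.787, 1.26 and 0.796 on PD16. Angpt2 thus exceeded Angpt1 in 2 of the 9 libraries, both of PD16. In these same libraries Lyve1 was at its highest, and Cyp17a1, the theca enzyme of androgen synthesis, was at 41.9 and 46.5 FPKM against 22.8 FPKM in PD16 replicate 2. The summed level of the theca and interstitial cell genes did not follow Cyp17a1. It was 1691, 1448 and 1282 FPKM in PD16 replicates 1, 2 and 3, lowest of the day in replicate 3. The part of the theca in these values was not tested.

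**Figure D4:**
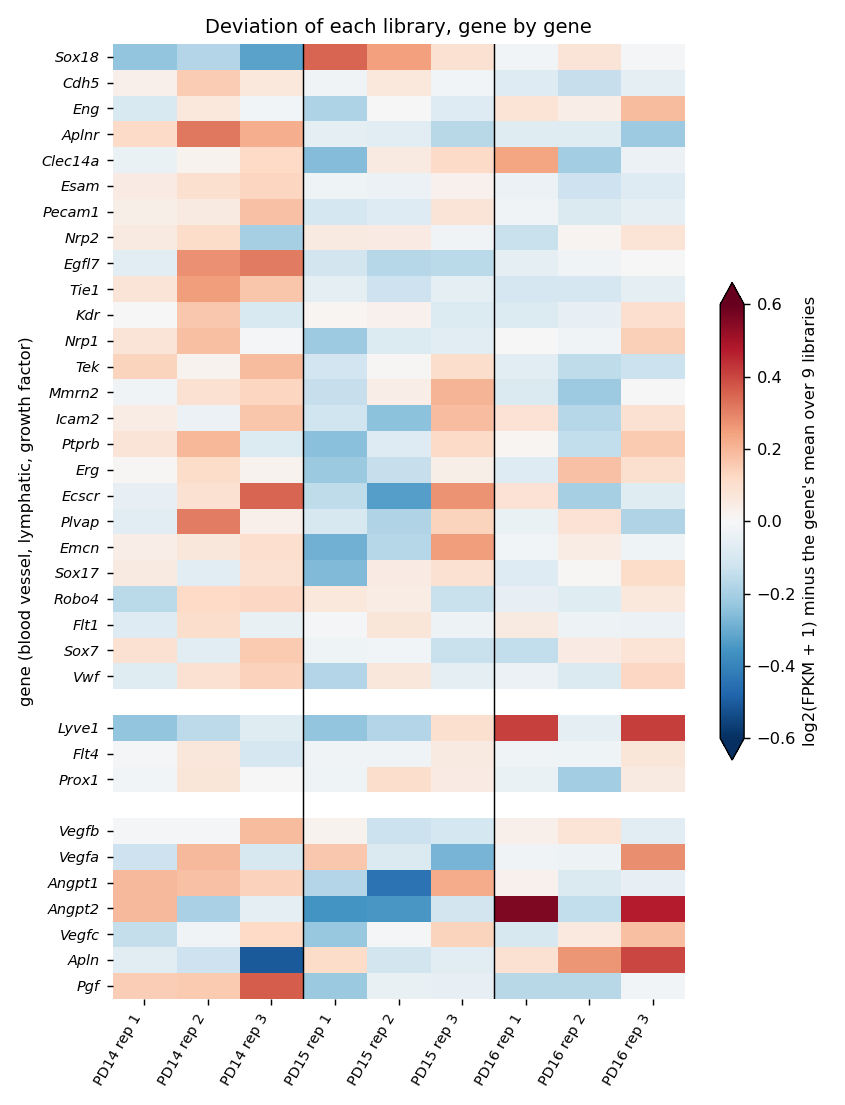
Deviation of log2(FPKM + 1) in each library from the mean of the gene over the 9 libraries, with genes in rows by group and libraries in columns by day. Red is above and blue below the mean, and the scale ends at 0.6 on either side. The blood vessel rows are mostly red in PD14 replicates 2 and 3 and mostly blue in PD15 replicate 1, with Sox18 reversed.

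Libraries differed in how the blood vessel genes stood as a whole. The mean deviation of the 25 genes from their own averages was 0.10 in PD14 replicate 2 and 0.08 in replicate 3 on the log2 scale, while PD14 replicate 1 was at 0.00. It was -0.10, -0.04 and 0.03 in PD15 replicates 1, 2 and 3 and -0.03, -0.06 and 0.01 in those of PD16. PD14 replicate 2 held the highest value of 9 genes and replicate 3 of 8 genes, and PD15 replicate 1 held the lowest value of 9 genes. Over all tested genes the same means lay between -0.01 and 0.01.

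Set against the other 24 blood vessel genes of the same library, the called genes kept their order. Sox18 stood 2.20 ± 0.0870 above the mean of the others on the log2(FPKM + 1) scale on PD14, 2.79 ± 0.201 on PD15 and 2.56 ± 0.0868 on PD16 (SD, n = 3). Aplnr stood 1.29 ± 0.0529, 1.06 ± 0.125 and 1.02 ± 0.121 above it, and Tie1 0.39 ± 0.0398, 0.23 ± 0.0780 and 0.21 ± 0.0168. For each of the 3 genes the PD14 and PD16 libraries did not overlap on this scale. The 3 were chosen for their differences between these same libraries, so the separation is no further test. Of genes not called, Tek and Egfl7 overlapped between PD14 and PD16 on this scale, and Cdh5 and Esam did not.

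Further genes of the same pathways were read from lists of vessel biology. Of 46 tested among 53 other endothelial genes, 0 were called on PD15 against PD14, with 32 of 46 negative and a median log2 difference of -0.09. On PD16 against PD14, 2 rose and 2 fell, against 2.36% and 1.89% of all genes, with 29 of 46 negative and a median of -0.04, where 48.1% and 47.8% of all genes were negative on the 2 days. On PD16 against PD15, 1 rose and 0 fell, against 0.432% and 0.297% of all genes. Cd36, a receptor for fatty acids and thrombospondin on capillaries, was at 6.75, 6.999 and 7.44 FPKM on PD14, at 6.41, 7.05 and 7.91 FPKM on PD15 and at 11.6, 9.51 and 11.3 FPKM on PD16. It rose on PD16 against both earlier days, by 0.55 (SE 0.09, adjusted p = 0.0177) over PD14 and by 0.54 (SE 0.09, adjusted p = 0.0408) over PD15. Klf4, a factor induced by flow, rose from 2.53 ± 0.350 to 3.97 ± 0.707 FPKM (log2 difference 0.49, SE 0.11, adjusted p = 0.0472).

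Efnb2, the arterial ephrin ligand, fell from 8.27 ± 0.209 FPKM on PD14 to 6.71 ± 0.393 FPKM on PD16 (log2 difference -0.27, SE 0.06, adjusted p = 0.0360). Exoc3l fell from 5.35 ± 0.154 to 3.20 ± 0.402 FPKM (log2 difference -0.60, SE 0.08, adjusted p = 0.0106), and its call held in each of the 9 fits that left out a library. That for Cd36 on PD16 against PD14 held in 6 of the 9 and on PD16 against PD15 in 4, with an adjusted p of up to 0.129, and those for Klf4 and Efnb2 in 1 each. These genes are also made by cells other than endothelium.

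Of 8 tested among 11 other lymphatic genes, Ccl21a, a chemokine of lymphatic endothelium, fell from 11.5 ± 1.61 FPKM on PD14 to 5.93 ± 1.38 FPKM on PD16 (log2 difference -0.86, SE 0.17, adjusted p = 0.0279). It belongs to a family of near-identical copies, so that its value is uncertain, and its call held in 5 of the 9 fits that left out a library. The other 7 were not called in any pairwise comparison, while 1.89% of all genes were called lower on PD16 against PD14.

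Of 44 tested among 57 other regulators of angiogenesis, 1 rose and 1 fell on PD15 against PD14, where 0.336% and 0.342% of all genes did. On PD16 against PD14, 4 rose and 0 fell, where 2.36% and 1.89% of all genes did. Thbs1, an inhibitor of angiogenesis that binds Cd36, was at 179, 172 and 153 FPKM on PD14, at 210, 208 and 199 FPKM on PD15 and at 218, 225 and 255 FPKM on PD16. Its libraries were ordered by day without overlap, and it rose by 0.47 (SE 0.09, adjusted p = 0.0266) on PD16 against PD14. Hey2, a target of Notch signalling, rose from 12.6 ± 0.797 FPKM to 17.9 ± 1.04 FPKM on PD15 (log2 difference 0.47, SE 0.07, adjusted p = 0.0310) and to 18.1 ± 1.01 FPKM on PD16 (log2 difference 0.49, SE 0.07, adjusted p = 0.0106).

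Id3, a target of BMP signalling, rose from 50.8 ± 4.31 to 81.1 ± 9.00 FPKM on PD16 (log2 difference 0.66, SE 0.11, adjusted p = 0.0177), and Ntn4, a secreted netrin, from 3.79 ± 0.707 to 6.46 ± 1.35 FPKM (log2 difference 0.63, SE 0.14, adjusted p = 0.0375). Acvrl1, the endothelial receptor for which Eng is the co-receptor, was at 5.91, 6.42 and 6.01 FPKM on PD14, at 4.49, 4.58 and 4.84 FPKM on PD15 and at 5.92, 5.39 and 5.40 FPKM on PD16. It fell on PD15 (log2 difference -0.34, SE 0.06, adjusted p = 0.0487), and this call was lost on leaving out any of the 9 libraries. That for Hey2 on PD16 held in all 9 such fits, on PD15 in 4, and those for Id3, Thbs1 and Ntn4 in 7, 3 and 1.

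Mural cells wrap the endothelium, and 14 markers of pericytes and vascular smooth muscle were all tested. On PD15 none was called, with 11 of 14 negative against 48.1% of all genes. On PD16 against PD14, 1 rose and 1 fell, against 2.36% and 1.89% of all genes, with 7 of 14 negative against 47.8%. Rgs5, a pericyte marker, was at 19.6, 21.98 and 21.6 FPKM on PD14, at 10.4, 13.3 and 15.5 FPKM on PD15 and at 14.9, 12.5 and 12.6 FPKM on PD16. All PD14 libraries were above all later ones, and Rgs5 fell by 0.62 (SE 0.12, adjusted p = 0.0294) on PD16. Cnn1, calponin of smooth muscle, rose from 7.65 ± 0.435 to 12.2 ± 1.63 FPKM (log2 difference 0.61, SE 0.13, adjusted p = 0.0348). The summed level of the 14 markers was 372 to 415 FPKM, 347 to 430 FPKM and 387 to 496 FPKM on the 3 days, and each of these calls held in 3 of the 9 fits that left out a library.

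Overlapping genes limit a few values, because the library kit named in the labels does not mark strand. Sox17 shares 16.8% of its exonic bases with another annotated gene, Angpt1 14.2% and Egfl7 11.2%, the last with Agpat2 and the miR-126 hairpins among others. Reads from these bases cannot be told apart by gene. For Ecscr, Prox1, Eng and Nrp1 the shared part was 3.54% or less, and for the other members, Sox18, Tie1 and Aplnr among them, it was 0.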

How the data were processed

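Ovaries of 9 samples, 3 each on PD14, PD15 and PD16, were sequenced as bulk RNA. The authors deposited FPKM in 1 table for each library, and no rescaling was applied to them in the main analysis. The submitters' processing notes name HISAT2 2.0.5 and mm10, and the counter and annotation are not given in the sources used here. Genes were read as log2(FPKM + 1), kept with a mean above 1 FPKM on at least 1 day (15495 genes) and tested with limma 3.58.1 (R 4.3.3) with an intensity trend, all 9 libraries in 1 fit, for 3 pairwise comparisons and an F test, with Benjamini-Hochberg adjustment over all genes and calls at an adjusted p under 0.05. The test was checked on simulated data.

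Exon lengths of GENCODE M21 gave the FPKM step of 1 fragment, and 93.5% to 93.9% of low values were whole within 0.05 fragments in each library, as were 32 of the 36 members within 0.1. Depth came from this step, and fragment numbers are given only for those 32. Alternatives were other pseudocounts, filters, scalings and variance models, a replicate block, the 2 days compared alone and each library left out, and voom on the recovered fragments was added after seeing the data.

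The members, lists and rule for naming genes were chosen with earlier results of these data known. All members are described, and of the other lists every gene called in a pairwise comparison is named. Of the cell type lists, the summed level, markers at 0 and counts of tested genes by sign and call are given. Markers named singly were chosen after their values were seen. Sequences were taken from RefSeq on GRCm38.p6. Tables and figures were made with Python 3.11.15, NumPy 2.4.6, pandas 2.3.3 and Matplotlib 3.10.9.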

Additional observations from a re-analysis of the deposited data

How the results depend on the processing

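In all 31 tested differences followed through the alternatives, the direction stayed the same. These were the differences of members with an unadjusted p under 0.05 by limma in the main fit and those of other genes called there. As the alternatives reuse the same libraries, a kept direction was likely beforehand and is no separate support. The count of members called in PD15 against PD14, 1 in the main fit, was 0 with no filter on low values, with only the 2 days compared and with the replicate block, and 0 to 1 without 1 library, the gene being Egfl7 in place of Sox18 without PD14 replicate 1. In PD16 against PD14 the count of 2 became 1 in limma without the trend, 0 with no filter, with only the 2 days compared and with the replicate block, and 0 to 2 without 1 library, Lyve1 being the gene called without PD16 replicate 2 and Egfl7 joining Aplnr without PD14 replicate 1. In PD16 against PD15 the count of 0 ran from 0 to 1 without 1 library, the 1 being Angpt2 without PD16 replicate 2. For the F test the count of 2 became 3 with a filter at a mean above 5 FPKM, where Tie1 joined Sox18 and Aplnr, 1 without the trend, 0 with no filter and with the replicate block, and 0 to 1 without 1 library. The gene was Egfl7 without PD14 replicate 1, Sox18 without PD15 replicate 3 and Angpt2 without PD16 replicate 2. Aplnr was not called by the F test in any fit that left out a library. Other pseudocounts, scalings, robust shrinkage and voom kept the calls of Sox18, Tie1 and Aplnr. The cause of the lost calls was not tested. Deviations of same-numbered libraries correlated at -0.21 to 0.16 across genes. Differently numbered libraries were not set beside them, so these values cannot decide whether replicate numbers pair the samples. The replicate block gave adjusted p = 0.0602 by limma for Sox18 on PD15.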
